A study of Homo sapiens with 14 samples.

Results

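The first 10 days of a pooled base editor screen in A549 cells were examined for sgRNAs that became rarer or more frequent. The change of an sgRNA was the log2-fold change (LFC) of its normalized count at day 10 over day 0, and the whole table was included, which holds the complete sgRNA library of the series. Of its sgRNAs, 71 were named after 17 genes, 3 after AAVS1 and 4 after the puromycin resistance gene, and a further 1000 were non-targeting and 7999 carried the ID of an m6A site. The classes of sgRNAs were those that the IDs name. The 14 genes described singly were listed with earlier results of these data known. A549, a human lung carcinoma line, expressed FNLS-BE3, a cytosine base editor delivered by lentivirus, in every group. The cells with the editor were selected with puromycin before the sgRNA library was added. Cells infected with the sgRNA library at a low multiplicity were selected with blasticidin for 5 days, then sampled as day 0 (1 library), and the remaining cells were passaged and sampled at day 10 (2 libraries). The labels do not say whether the day 10 libraries came from separate cultures. The p values thus rest on the spread between these libraries, shared across sgRNAs, which may be technical. Both day 10 libraries are read against the same day 0 library, so an error of that library enters both LFCs. Later time points and the screen in H1 cells were not used.

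A cytosine base editor joins a deaminase to a Cas9 nickase and turns C into T within a short window of the site to which the sgRNA leads it. Where such a change creates a stop codon, the gene's protein is cut short, and cells that need the protein for growth are outgrown by the others, so the sgRNA becomes rarer in the pool. The sgRNAs named after genes were designed to create stop codons in oncogenes and tumor suppressor genes, and the comparison asks which of them changed in frequency early. The m6A-targeting sgRNAs lead the editor to sites of N6-methyladenosine, a common mark of messenger RNA, and were designed for an adenine editor, which was not the editor used here. The non-targeting sgRNAs serve as the negative control. Loss of a short-lived regulator that cells need at once shows early in such a screen, while sgRNAs with a small cost to growth need more divisions to fall behind.

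The libraries held 15969599 reads at day 0, and 16457222 and 14925937 at day 10 (replicates 1 and 2). The median normalized count was 1606 at day 0 and 1612 and 1619 at day 10, and no sgRNA was at 0 in any of the 3 libraries. The lowest normalized count was 229 at day 0, 209 in replicate 1 and 68.3 in replicate 2. The difference between the LFCs of both day 10 libraries had an SD of 0.26 over all sgRNAs, against 0.05 expected from read counting alone. The spread between libraries was thus larger than read counting allows. Over all sgRNAs the mean LFC had an SD of 0.24, against 0.22 computed for 3 libraries that vary independently with the spread seen at day 10. For the non-targeting sgRNAs both values were 0.23 and 0.22, and for those named after genes they were 0.47 and 0.23.

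3 of the *MYC* sgRNAs had fallen steeply by day 10. *MYC* encodes a short-lived transcription factor that drives the expression of genes for growth and division. On GRCh37 the gene lies on chromosome 8 from 128747680 to 128755197. *MYC*-3 had a normalized count of 2484 at day 0, and of 375 and 541 in the day 10 libraries. *MYC*-2 went from 1484 to 507 and 397, and *MYC*-1 from 1696 to 648 and 432. In each case both day 10 values were far below the day 0 value and closer to each other than to it. The abundance left at day 10 relative to day 0 was 0.151 and 0.218 for *MYC*-3, 0.342 and 0.268 for *MYC*-2, and 0.382 and 0.254 for *MYC*-1.

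*MYC*-3 had a mean LFC of −2.46 ± 0.37 (SD over the 2 day 10 libraries). For *MYC*-2 it came to −1.72 ± 0.25, and for *MYC*-1 to −1.68 ± 0.41, with the same n. These were ranks 1, 2 and 3 from the bottom among all sgRNAs. limma was fitted on log2(normalized count + 1) over the 3 libraries, with Benjamini-Hochberg adjustment over all sgRNAs, and the spread of the single day 0 library is assumed to equal that of the day 10 libraries. *MYC*-3 reached an adjusted p of 2.63e-12 in limma, *MYC*-1 one of 0.000154 and *MYC*-2 one of 0.000775. At an adjusted p under 0.05 these 3 sgRNAs were the only ones called among all sgRNAs, all of them lower at day 10, which is 0.0331% of those tested. In the other direction 0 were called by limma, with 342 higher at an unadjusted p under 0.05 (3.77%) and 267 lower (2.94%). After rescaling the libraries to the same median of the non-targeting sgRNAs, only *MYC*-3 was called (adjusted p from limma = 0.0326), and *MYC*-1 and *MYC*-2 had an adjusted p of 0.418 from limma at LFCs of −1.72 and −1.76.

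By Sanger sequencing the study saw no editing by *MYC*-4, the remaining sgRNA of the gene. *MYC*-4 had normalized counts of 1820.4 at day 0, and of 1394 and 1425 at day 10. Its mean LFC was −0.37 ± 0.02 (SD, n = 2 libraries), and its adjusted p from limma was 0.79. In replicate 1 its LFC was −0.38 and in replicate 2 it was −0.35, both above the low 5% limit of the non-targeting sgRNAs, which was −0.40 in each library. Added up, the 4 *MYC* sgRNAs had 0.391 and 0.373 of their day 0 count at day 10, a sum that includes *MYC*-4.

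The study reads its last time point at an LFC beyond 1 in size. At day 10, 6 sgRNAs had a mean LFC below −1, which is 0.0661% of all, and 1 was above 1, which is 0.011%. Those below −1 were *MYC*-1, *MYC*-2 and *MYC*-3, the non-targeting sgRNAs NT-344 and NT-944, and the m6A-targeting sgRNA 2bc36062_GAC_4.5. The threshold was thus passed downward by 3 of 71 sgRNAs named after genes (4.23%), 2 of 1000 non-targeting sgRNAs (0.2%) and 1 of 7999 m6A-targeting sgRNAs (0.0125%). With a single day 10 library the count below −1 was 11 for either library, as 1 extreme value then suffices. Of the 3 *MYC* sgRNAs called, *MYC*-1 had the smallest change, −1.68, against −1.17 for NT-344, the lowest of all sgRNAs outside *MYC*. *MYC*-4, at −0.37, lay above NT-344.

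A background within each library was taken from the non-targeting sgRNAs. Their lowest 1% lay below −0.57 in replicate 1 and below −0.60 in replicate 2, and their highest 1% lay above 0.63 and 0.62. Below the low limit in both libraries were 35 sgRNAs, which is 0.386% of all, and above the high limit in both were 21 (0.231%). The 35 comprised 6 sgRNAs named after genes (8.45%), 25 m6A-targeting sgRNAs (0.313%) and 4 non-targeting sgRNAs (0.4%). *MYC*-1, *MYC*-2, *MYC*-3 and *CDK9*-4 were among the 6. Among the 21 above the high limit, 0 were named after genes, 20 were m6A-targeting (0.25%) and 1 was non-targeting (0.1%).

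The kinases that act on transcription differed by sgRNA. *CDK9*, on chromosome 9 from 130547958 to 130553071, encodes the kinase of the elongation factor P-TEFb, which releases paused RNA polymerase II. *CDK9*-4 had a normalized count of 1996 at day 0, and of 1120.0 and 992 at day 10. Its LFC was −0.83 in replicate 1 and −1.01 in replicate 2, with a mean of −0.92 ± 0.12 (SD, n = 2 libraries), and each library's LFC lay under its low 1% limit. It ranked 10 from the bottom, and its adjusted p from limma was 0.0819, above the threshold. That p lay between 0.0815 and 0.846 over the alternatives tested. Mean LFCs of the remaining *CDK9* sgRNAs were 0.01, −0.06 and −0.18, so 1 of 4 sgRNAs of the gene was beyond the limits.

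*CDK8*, which encodes a kinase of the Mediator complex, had 4 sgRNAs with mean LFCs from −0.28 to 0.24. *CDK8*-2 was the lowest, at −0.28 ± 0.04 (SD, n = 2 libraries), and *CDK8*-1 the highest, at 0.24 ± 0.10 (SD, n = 2). Both signs occurred among them, 2 sgRNAs being lower in both libraries and 1 higher in both, and 0 were beyond the 5% limits of the non-targeting sgRNAs. The smallest adjusted p from limma for the gene was 0.899.

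*CDK2*, *CDK5* and *CDK6* sgRNAs had small LFCs of mostly the same sign. *CDK2* encodes a kinase of entry into and passage through S phase, *CDK6* one that phosphorylates the retinoblastoma protein with D-type cyclins, and *CDK5* a kinase best known from neurons. Of their 12 sgRNAs, 11 had an LFC under 0 in both day 10 libraries, against 33.3% of all sgRNAs. Among the 57 sgRNAs of the described genes other than *MYC*, which include these 12, the share was 66.7%. The median of the mean LFC was −0.27 for *CDK6*, −0.15 for *CDK5* and −0.12 for *CDK2*, against 0.0013 over all sgRNAs. By limma 0 of the 12 passed an adjusted p under 0.05, the smallest being 0.649, and *CDK2*-3 and *CDK6*-1 had an unadjusted p of 0.0314 and 0.0181 from limma.

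*CDK2*-3 had normalized counts of 1612 at day 0, and of 1096 and 1194 at day 10, and passed the low 5% limit of each library, as did 1.96% of all sgRNAs. Its mean LFC was −0.49 ± 0.09 (SD, n = 2 libraries). The other *CDK2* sgRNAs lay between −0.12 and −0.09. *CDK6*-1 had counts of 1521 at day 0, and of 1351 and 775 at day 10. Its LFC was −0.17 in replicate 1 and −0.97 in replicate 2, so its mean of −0.57 ± 0.57 (SD, n = 2) rested on 1 library. The other *CDK6* sgRNAs had mean LFCs of −0.26, −0.28 and −0.26, with SDs of 0.13, 0.15 and 0.11 over the libraries. All 4 sgRNAs of *CDK6*, a gene on chromosome 7 from 92234235 to 92465887, were thus lower in both libraries and by similar amounts apart from *CDK6*-1.

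Among the tumour suppressor and DNA repair genes, *BAP1* had the most even pattern. *BAP1* encodes a nuclear deubiquitinase of histone H2A, and *BRCA1* and *BRCA2* encode proteins of homologous recombination repair. All 5 *BAP1* sgRNAs had an LFC under 0 in both libraries, with mean LFCs from −0.32 to −0.14 and a median of −0.19. An LFC under 0 in both was found in 33.3% of all sgRNAs. Among the 57 sgRNAs of the described genes other than *MYC* the share was 66.7%. The SD over the libraries was largest for *BAP1*-1, with −0.11 in replicate 1 and −0.53 in replicate 2. None of these 5 sgRNAs was beyond the 5% limits of the non-targeting sgRNAs in both libraries, and the smallest adjusted p from limma was 0.831.

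*BRCA1*-1 stood lowest of the repair genes, at normalized counts of 1972 at day 0, and of 1394 and 1260.3 at day 10. Its mean LFC was −0.57 ± 0.10 (SD, n = 2 libraries), below the 5% limits in both libraries, with an adjusted p of 0.562 from limma. The other 4 *BRCA1* sgRNAs ranged from −0.25 to 0.16, and *BRCA1*-3, the highest, was above 0 in both libraries. The *BRCA2* sgRNAs ranged from −0.29 to 0.14, with 3 of 5 lower in both libraries and 1 higher in both. Of the 57 sgRNAs of the described genes other than *MYC*, 66.7% were lower in both and 12.3% higher in both. Over all sgRNAs these shares were 33.3% and 34.5%.

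The sgRNAs of growth signalling genes lay close to 0 at day 10. *EGFR* encodes a growth factor receptor, *BRAF* a kinase of the MAPK cascade and *AKT1* a kinase downstream of PI3K. Their 13 sgRNAs had mean LFCs from −0.30 to 0.22 with a median of −0.09, and 9 of them were lower in both libraries. Lower in both were 66.7% of the 57 sgRNAs of the described genes other than *MYC*, and 33.3% of all sgRNAs. *EGFR*-2 was the lowest, at −0.30 ± 0.06 (SD, n = 2 libraries). *EGFR*-1 was the highest and the least even, with a normalized count of 2089 at day 0, and of 2988 and 1986 at day 10. Its LFC was 0.52 in replicate 1 and −0.07 in replicate 2. The smallest adjusted p from limma among the 13 was 0.855.

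*MYB*, a transcription factor gene best known from blood progenitors, had sgRNAs on both sides of 0. *MYB*-2 was the highest of all sgRNAs described by gene, at a normalized count of 1734 at day 0, and of 2279 and 2258 at day 10. Its mean LFC was 0.39 ± 0.01 (SD, n = 2 libraries) and its adjusted p from limma was 0.718. *MYB*-3 was higher in both libraries too (0.21), and *MYB*-1, *MYB*-4 and *MYB*-5 were lower in both, at −0.06, −0.23 and −0.10.

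*TGFB1*, which encodes a secreted cytokine that restrains the growth of many epithelial cells, was the only gene of the 14 described whose median LFC was above 0. Its 4 sgRNAs had mean LFCs from −0.02 to 0.26 with a median of 0.11. *TGFB1*-2 had normalized counts of 2584 at day 0, and of 2835 and 3399.5 at day 10, and an adjusted p of 0.824 from limma. *TGFB1*-1 had LFCs of 0.39 in replicate 1 and −0.17 in replicate 2, and *TGFB1*-4 had 0.14 and −0.17, so the direction of these was not the same in both libraries.

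The control sgRNAs with a target had mean LFCs from −0.26 to 0.15. The 4 sgRNAs against the puromycin resistance gene, which the cells carried with the editor, had mean LFCs from 0.06 to 0.15. The 3 sgRNAs of AAVS1, a safe-harbor locus, had −0.26, −0.17 and 0.13. The SD over the libraries was 0.20, 0.11 and 0.19 for these, and 2 of the 3 were lower in both libraries. None of the 7 was beyond the 5% limits of the non-targeting sgRNAs in both libraries.

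As a class, sgRNAs named after genes had a lower median LFC than the non-targeting and m6A-targeting sgRNAs, though not than the 3 AAVS1 sgRNAs, whose median was −0.17. Their median LFC was −0.11 over all 71, with −0.11 in each day 10 library. The non-targeting sgRNAs had a median of 0.02 (0.03 in replicate 1 and 0.02 in replicate 2), and the m6A-targeting sgRNAs had a median of −0.00074. An LFC under 0 in both libraries was found in 63.4% of the sgRNAs named after genes, 29.9% of the non-targeting and 33.5% of the m6A-targeting sgRNAs. An LFC over 0 in both was found in 19.7%, 36.5% and 34.4%. sgRNAs of 1 gene share a target and all sgRNAs share the 3 libraries, and 1 library against 2 cannot reach a p under 0.05 by permutation of the libraries, so the classes were compared by counts and medians with no test.

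The median of the genes described stayed under 0 without *MYC*. The 61 sgRNAs of the 14 genes described had a median LFC of −0.134. Without the 4 *MYC* sgRNAs the 57 sgRNAs of the 13 other genes had a median LFC of −0.114, and 38 of them (66.7%) were lower in both libraries. Of the 14 genes, 13 had a median under 0. In 4 genes (*MYC*, *CDK2*, *CDK6* and *BAP1*) every sgRNA was lower in both libraries, and in 0 genes was every sgRNA higher in both. For *MYC* this includes *MYC*-4, by which the study saw no editing. Editing by the sgRNAs of the 13 other genes was not measured here, so whether these small LFCs follow from editing was not tested. Among these 14 genes, only *MYC* had more than 1 sgRNA below the 5% limits, and *CDK9*, *BRCA1* and *CDK2* had 1 each. The 10 sgRNAs named after genes but not reported singly are outside these counts and were less often lower. An LFC under 0 in both libraries was found in 68.9% of the 61 described sgRNAs, against 63.4% of all 71. An LFC over 0 in both was found in 11.5%, against 19.7% of all 71.

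The LFC differed with the abundance of an sgRNA at day 0, a count that enters the LFC itself. In the lowest quintile of the day 0 counts (229 to 1165) the median LFC was 0.09, and in the highest quintile (2203 to 8956) it was −0.04. The SD of the difference between the day 10 libraries, which the day 0 library does not enter, was 0.32 in the lowest and 0.20 in the highest quintile. All but 1 of the 21 sgRNAs above the high non-targeting limit lay in the lowest quintile, and the sgRNAs below the low limit were spread more widely, with 13, 9, 3, 4 and 6 from the lowest to the highest quintile. In each quintile the sgRNAs of the 14 genes (7, 12, 15, 12 and 15 sgRNAs) had a lower median than the non-targeting sgRNAs. These medians were −0.11 against 0.12 in the lowest quintile, −0.12 against 0.03, −0.28 against 0.03, −0.22 against 0.00, and −0.09 against −0.01 in the highest. With the non-targeting median of the same quintile taken off, the median LFC was −0.12 for sgRNAs named after genes and −0.03 for m6A-targeting sgRNAs, an alternative chosen after seeing the data.

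Some non-targeting sgRNAs, which are designed to match no site of the human genome, had LFCs as low as any sgRNA outside *MYC*. NT-344 had a normalized count of 1061 at day 0, and of 411 and 542 at day 10. Its mean LFC was −1.17 ± 0.28 (SD, n = 2 libraries), rank 4 from the bottom. NT-944 went from 1367 to 646 and 668, a mean LFC of −1.06 ± 0.03 (SD, n = 2). NT-736 was next, at −0.76 ± 0.17 (SD, n = 2). All 3 were lower in both libraries, and their adjusted p values from limma were 0.275, 0.186 and 0.529. The highest non-targeting sgRNAs were NT-418, NT-904 and NT-635, at mean LFCs of 0.76, 0.75 and 0.65. At an unadjusted p under 0.05 limma called 2.8% of the non-targeting sgRNAs lower and 4% higher, and after adjustment it called 0.

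The m6A-targeting sgRNAs lay close to the non-targeting sgRNAs at day 10. Their mean LFCs had an SD of 0.23, and 150 (1.88%) were below the 5% limits of the non-targeting sgRNAs in both libraries, against 20 (2%) of the non-targeting sgRNAs. Above the high 5% limits were 138 (1.73%), against 15 (1.5%) of the non-targeting and 1.69% of all sgRNAs. By limma 0 of 7999 passed an adjusted p under 0.05, with 231 lower and 298 higher at an unadjusted p under 0.05. The smallest adjusted p was that of 2bc26798_GAC_1.5, an sgRNA picked out after its values were seen, at 0.0507 from limma. Its normalized counts were 3642 at day 0, and 2196 and 2220.1 at day 10, a mean LFC of −0.72 ± 0.01 (SD, n = 2 libraries). Rescaled to the same total it passed, with an adjusted p of 0.0429 from limma, and over the alternatives its adjusted p ranged from 0.0429 to 0.838.

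The lowest m6A-targeting sgRNA was 2bc36062_GAC_4.5, with a low count of 439 at day 0, and of 233 and 182 at day 10. Its mean LFC was −1.09 ± 0.25 (SD, n = 2 libraries), with an adjusted p of 0.786 from limma. 2bc13337_AAC_2.8 went from 1043 to 532 and 534, a mean LFC of −0.97, and 2bc19812_GAC_3.5 from 1295 to 656 and 692, a mean LFC of −0.94. These LFCs were even across the libraries, with SDs of 0.0030 and 0.06. 2bc26787_GAC_1.7 and 2bc10349_GAC_2.5 were uneven, with LFCs of −1.61 and −0.24, and of −1.37 and −0.15, in replicates 1 and 2. The other sgRNA at the site of 2bc13337_AAC_2.8 had a mean LFC of −0.22, and that at the site of 2bc26787_GAC_1.7 had −0.17. Of the 10 lowest with the same sign in both libraries, 6 were below the 1% limits in both and 6 had GAC in the ID, against 5599 of all 7999. Their mean LFCs were −1.09 to −0.76 and their adjusted p values from limma 0.108 to 0.786.

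The highest m6A-targeting sgRNA was 2bc34169_GAC_11.5, the one sgRNA with a mean LFC above 1. Its normalized count was 619 at day 0, and 1216 and 1296 at day 10, a mean LFC of 1.02 ± 0.06 (SD, n = 2 libraries) with an adjusted p of 0.132 from limma. With the non-targeting median of its quintile taken off its LFC was 0.89. 2bc18232_GAC_2.4 followed, from 552 to 1214 and 991, and 2bc18247_AAC_1.7, from 648 to 1194 and 1283. The other sgRNA at the site of 2bc18247_AAC_1.7 was lower in both libraries, with a mean LFC of −0.17. The 10 highest had mean LFCs of 0.78 to 1.02. Their day 0 counts were low, from 347 to 1098, so that all of them were in the lowest quintile.

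The features held in the IDs went with little difference in LFC. The median was −0.0036 for the 5599 with GAC and 0.0060 for the 2400 with AAC in the ID, and 2.04% and 1.5% were below the 5% limits in both libraries. Above the high 5% limits were 1.66% and 1.88%. The number after the point of the ID runs from 4 to 8, and its meaning is not given in the table. Its groups had median LFCs from −0.01 to 0.01, and from 1.14% (number 6) to 2.29% (number 5) of their sgRNAs were below the 5% limits. For site IDs with 1, 2 and 3 or more sgRNAs these shares were 1.87%, 1.58% and 2.48%, and the shares above the high 5% limits were 1.76%, 2% and 1.03%.

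Few sites had several sgRNAs with low LFCs. Of 1545 site IDs with 2 or more sgRNAs, 63 had 1 or more below the 5% limits in both libraries, and 3 had 2 or more. At 2bc29330_GAC_1 both sgRNAs were below the limits, with mean LFCs of −0.57 ± 0.06 and −0.47 ± 0.03 (SD, n = 2 libraries). At 2bc33141_AAC_3 the sgRNAs ending in 4 and 5 had −0.74 and −0.58, and those ending in 6 and 7 had −0.40 and 0.07. At 2bc39116.0_AAC_4 those ending in 5 and 7 had −0.80 and −0.61, and the one ending in 6 had 0.37. At the site of 2bc34169_GAC_11.5, the highest sgRNA, the others had mean LFCs of 0.35, 0.27 and −0.16. At 0 sites were 2 or more sgRNAs above the high 5% limits. The sgRNAs of a site share their target, so they do not count as independent, and by limma 0 of these passed an adjusted p under 0.05. No gene is given for these sites, since the table holds their IDs only.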

How the data were processed

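Genomic DNA of FNLS-BE3-expressing A549 cells was amplified over the sgRNA insert and sequenced, and groups were taken from the labels. The submitters' processing notes list CASAVA 1.4, cutadapt and MAGeCK, and by the methods the authors used the latter tools to trim the reads and to obtain normalized counts. Their versions were not given in the sources. The deposited signal of an sgRNA equals its reads multiplied by a constant of that library. In each of the 3 libraries 100% of values were whole multiples of that factor within 0.05 reads, which gave the depth. The PCR reads carry no molecular identifiers.

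LFCs were log2((day 10 + 1)/(day 0 + 1)) per day 10 library, then averaged. limma 3.58.1 (lmFit, eBayes with a trend, two-sided) in R 4.3.3 was fitted to log2(normalized count + 1) of 3 libraries, with 1 residual degree of freedom per sgRNA and Benjamini-Hochberg adjustment over all sgRNAs. The prior degrees of freedom were infinite, so the shared trend set the spread of every sgRNA. The fit was also run on simulated data with the same spread in every library and sgRNA, so the assumption on day 0 was not checked. Limits were the percentiles 1 and 99 (or 5 and 95) of the non-targeting sgRNAs in each library, to be passed in both. Python 3.11.15 was used otherwise. Named were all sgRNAs with a gene, AAVS1 or puromycin name, the 10 lowest and 10 highest m6A-targeting and the 3 lowest and 3 highest non-targeting sgRNAs with 1 sign in both libraries. The members and gene lists were chosen with earlier results of these data known. Of the sgRNAs named after genes, 10 are counted in their class and not reported here singly. Gene positions are those of an annotation of GRCh37. Alternatives were the pseudocount, rescaling, a minimum day 0 count, the variance trend, the limits and leaving out each day 10 library.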

Additional observations from a re-analysis of the deposited data

How the results depend on the processing

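With the percentiles 5 and 95 of the non-targeting sgRNAs as limits, 178 sgRNAs lay below and 153 above. Rescaled to the same total, limma called 4 sgRNAs lower, and the median LFCs were −0.12 (sgRNAs named after genes), 0.018 (non-targeting) and −0.0073 (m6A-targeting). Rescaled to the same non-targeting median in each library, limma called 1 sgRNA lower, 1 of the *MYC* sgRNAs, 0 had a mean LFC above 1, and the medians were −0.15, −0.012 and −0.037. In that fit limma's prior degrees of freedom were 10.6 in place of infinite. With the non-targeting median of the same quintile of the day 0 count taken off, chosen after seeing the data, 0 sgRNAs were above 1, and the medians were −0.12, 0.0049 and −0.028. Pseudocounts of 0.5 and 10, a minimum day 0 count of 500 and limma without a trend left 3 sgRNAs called.

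With either day 10 library left out, 11 sgRNAs were below −1 and 4 above 1, 128 to 185 lay below and 90 to 108 above the non-targeting limit, now passed in 1 library, and the medians were −0.113 to −0.111 for sgRNAs named after genes and 0.00081 to 0.0043 for m6A-targeting sgRNAs. This leaves no residual degrees of freedom, so the calls were not tested. No LFC of a named sgRNA that limma called changed sign under any alternative. No paired analysis was possible because day 0 has 1 library, against which both day 10 libraries are read. A count-based quasi-likelihood test on whole reads was planned and not run, although the values were whole multiples of a library constant, so its calls are not known. The single day 0 library limits all values, and differences within the spread of the non-targeting sgRNAs were not detectable.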
